A study of Mus musculus with 12 samples.

Results

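The 8 genes described here are regulators of fat cell formation and genes that handle fatty acids: Pparg, Cebpa, Cebpd, Ppard, Lpl, Cd36, Fabp4 and Plin2. They were chosen by name, and all 8 were matched by gene symbol among the 55416 genes of the deposited count table. The cells were C2C12, a line of mouse muscle precursors, and total RNA was sequenced in 12 libraries, which are 3 biological replicates of each of 4 groups. The groups were cells labelled as Mapk14 knockout in differentiation medium (KO DM), wild-type cells in differentiation medium (WT DM), cells labelled as Mapk14 knockout in growth medium (KO GM) and wild-type cells in growth medium (WT GM). DM held 2% horse serum and GM 10% fetal bovine serum, so the media differ in the kind of serum as well as its amount. All cells were first grown in GM to about 60% confluence and then kept in DM or GM for 5 days. The sources used here give neither the number of knockout clones nor the way the gene was edited, so a clone and the genotype cannot be told apart.

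Fat cell formation runs through a cascade of transcription factors. C/EBP beta and C/EBP delta (Cebpd) act early, and PPAR gamma (Pparg) and C/EBP alpha (Cebpa) then sustain each other and drive the genes of the mature fat cell. PPAR delta (Ppard) is a related fatty acid receptor that in skeletal muscle is known for driving fatty acid oxidation genes. Of the handling genes, lipoprotein lipase (Lpl) frees fatty acids from lipoproteins outside the cell, Cd36 carries them across the membrane, Fabp4 binds them in the cytosol, and perilipin 2 (Plin2) coats the lipid droplet in which they are stored. Muscle cells use LPL, CD36 and perilipin 2 for their own fuel supply, whereas FABP4 is best known from fat cells, macrophages and capillary endothelium.

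In GENCODE vM21 (GRCm38, not the build of the counts, which was GRCm39), the regulators lie at chr6:115360951-115490399 on the plus strand (Pparg), chr7:35119293-35121928 plus (Cebpa), chr16:15887286-15891031 plus (Cebpd) and chr17:28232700-28301474 plus (Ppard). The handling genes lie at chr8:68880491-68907448 plus (Lpl), chr5:17781690-17888801 minus (Cd36), chr3:10204088-10208576 minus (Fabp4) and chr4:86648386-86670060 minus (Plin2). The 8 genes are thus on 8 different chromosomes, and all are protein-coding.

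Promoter sequences are shown for Cd36, which had no counts in KO-labelled cells, and for Plin2 and Ppard, which were lower in DM under both genotype labels. They are the bases before the annotated start that lie outside the gene's annotated exons, from RefSeq (GRCm38.p6), and 5 of the 8 genes had an entry. The RefSeq start of Cd36 lies inside the longer GENCODE gene. Capitals mark the E-box CAGCTG and the GC box GGGCGG.
Cd36, chr5:17835897-17836146, minus strand: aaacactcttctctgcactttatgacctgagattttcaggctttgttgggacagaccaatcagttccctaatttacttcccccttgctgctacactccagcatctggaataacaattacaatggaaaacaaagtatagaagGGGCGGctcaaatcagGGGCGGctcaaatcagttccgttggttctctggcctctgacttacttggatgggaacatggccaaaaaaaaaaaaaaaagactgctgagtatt
Plin2, chr4:86670061-86670309, minus strand: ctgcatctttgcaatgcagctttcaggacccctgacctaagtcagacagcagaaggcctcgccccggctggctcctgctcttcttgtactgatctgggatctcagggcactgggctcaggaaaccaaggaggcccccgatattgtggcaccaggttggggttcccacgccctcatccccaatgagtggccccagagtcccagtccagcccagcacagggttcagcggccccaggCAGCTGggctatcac
Ppard, chr17:28232504-28232699, plus strand: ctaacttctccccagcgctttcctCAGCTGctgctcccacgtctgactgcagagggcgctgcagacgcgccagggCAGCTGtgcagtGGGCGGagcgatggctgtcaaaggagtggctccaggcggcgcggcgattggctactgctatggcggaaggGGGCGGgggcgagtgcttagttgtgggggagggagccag

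In the 250 bases before the start, on both strands, an E-box occurred in 13% of all 32851 RefSeq promoter entries and a GC box in 32.7%. Ppard held 2 E-boxes and Plin2 held 1. GC boxes were found in the windows of Ppard (3, of which 2 lie in the printed stretch), Cd36 (2, each followed by the same short stretch) and 2 of the 3 Pparg entries. The PPAR direct repeat, AGGTCA and again AGGTCA after 1 base (0.0335% of entries), the C/EBP palindrome TTGCGCAA (0.164%), the AP-1 site TGANTCA (6.75%) and the cyclic AMP element TGACGTCA (1.55%) were not in any of these windows. The TATA box TATAAA (12.4%) was found in the Cebpa window and in 1 of the 3 Pparg windows. These motifs do not overlap one another, and a match is only a match of letters.

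Libraries held 8821669 to 11536396 counts, and the labels name no batch that sets any of the 12 apart. Mapk14 itself was not lower under the knockout label, at 134 ± 3.58 CPM in KO GM and 124 ± 14 CPM in WT GM (edgeR, adjusted p = 0.35), and at 89.5 ± 4.67 CPM in KO DM and 91.3 ± 2.59 CPM in WT DM (adjusted p = 0.822). CPM are edgeR's counts scaled to an equal library size, and errors of levels are SD over n = 3 libraries throughout. Every genotype direction below is therefore between libraries by their labels. The GM replicate 3 libraries stood apart from their group. The variance between 2 libraries, in units of counting noise, was 10.7 and 14.4 for KO GM replicate 3 against its group and 6.32 between the other KO GM libraries. In WT GM these values were 9.66 and 14.6, and 3.52. For several results the values without these libraries, or the range with 1 library left out, are given as well.

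All 5 muscle markers (Myod1, Myf5, Myog, Des and Cdh15) had counts in every group, but their summed level was 869 to 998 CPM in KO DM, 2910 to 2940 in WT DM, 261 to 327 in KO GM and 1320 to 1500 in WT GM. Of 7 markers of mature fat cells, Adipoq, Cidec, Lep and Cfd were at 0 counts in all 12 libraries. The hormone-sensitive lipase gene Lipe gave nearly all of the list's summed level, 5.32 to 7.15 CPM in KO DM, 3.8 to 5.79 in WT DM, 4.61 to 10.4 in KO GM and 6.59 to 10.2 in WT GM. The brown fat markers Ucp1, Cidea and Prdm16 were at 0 in every library. Adgre1, Ptprc and Tyrobp, which mark macrophages, and Cldn5 of endothelium were at 0 as well. The 6 macrophage markers summed to 16.2 to 20.9 CPM in KO DM, 12 to 14.1 in WT DM, 13.6 to 14.5 in KO GM and 11.2 to 14.1 in WT GM, with Lyz2 called higher under the KO label. Lyz2, a lysozyme gene, was at 8.32 CPM in KO DM and 1.94 in WT DM (2.10 ± 0.26 on the log2 scale, adjusted p = 1.25e-06), and at 3.59 in KO GM and 2.02 in WT GM (0.82 ± 0.27, adjusted p = 0.0345), with an interaction of 1.27 ± 0.38 (adjusted p = 0.0389). The other tested macrophage markers, Cd68 and Csf1r, were not called between labels in either medium. Their interactions, at 0.84 ± 0.52 and -0.34 ± 0.26, were not called either. The 5 endothelial markers stayed at or below 0.798 CPM in every library. Fibro-adipogenic progenitor markers summed to 369 to 392 CPM in KO DM, 373 to 390 in WT DM, 358 to 427 in KO GM and 361 to 407 in WT GM, with Tcf21 at 0. These near-equal sums held changes in opposite directions, since 3 of the 4 tested markers were higher in KO DM than in WT DM (Osr1 by 0.85 ± 0.19, Cd34 by 0.70 ± 0.08 and Pdgfra by 0.49 ± 0.09 on the log2 scale) and Ly6a was lower (-0.61 ± 0.15). In KO GM against WT GM, Cd34 was higher (0.85 ± 0.08) and Ly6a lower (-0.67 ± 0.15). The part of these marker levels in the results below was not tested.

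All 8 genes passed the filter on low counts, though not all of them through every group. Cd36 was too low to measure in KO-labelled cells (0 counts in 6 libraries) and low in WT GM (6 to 11 counts), so it entered the tests through its WT DM libraries and had to differ somewhere. Fabp4 was close to the limit in KO DM, where it had 3 to 10 counts against a floor of 3. It reached the filter's cutoff in 3 libraries of each WT group, 2 of KO GM and 0 of KO DM. Fabp4 thus entered the tests through the WT groups. Pparg had 23 to 62 counts in each library, which limits its precision. The other 5 genes had at least 27 counts in every library. Per kilobase of its principal GENCODE transcript, Plin2 had the highest level of the 8 in every group, at 54.9 CPM per kilobase in KO DM, 67.7 in WT DM, 129 in KO GM and 130.0 in WT GM. It also ranked first per kilobase of all annotated exons. Cd36 was the lowest in KO DM, KO GM and WT GM by either length.

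**Figure D1:**
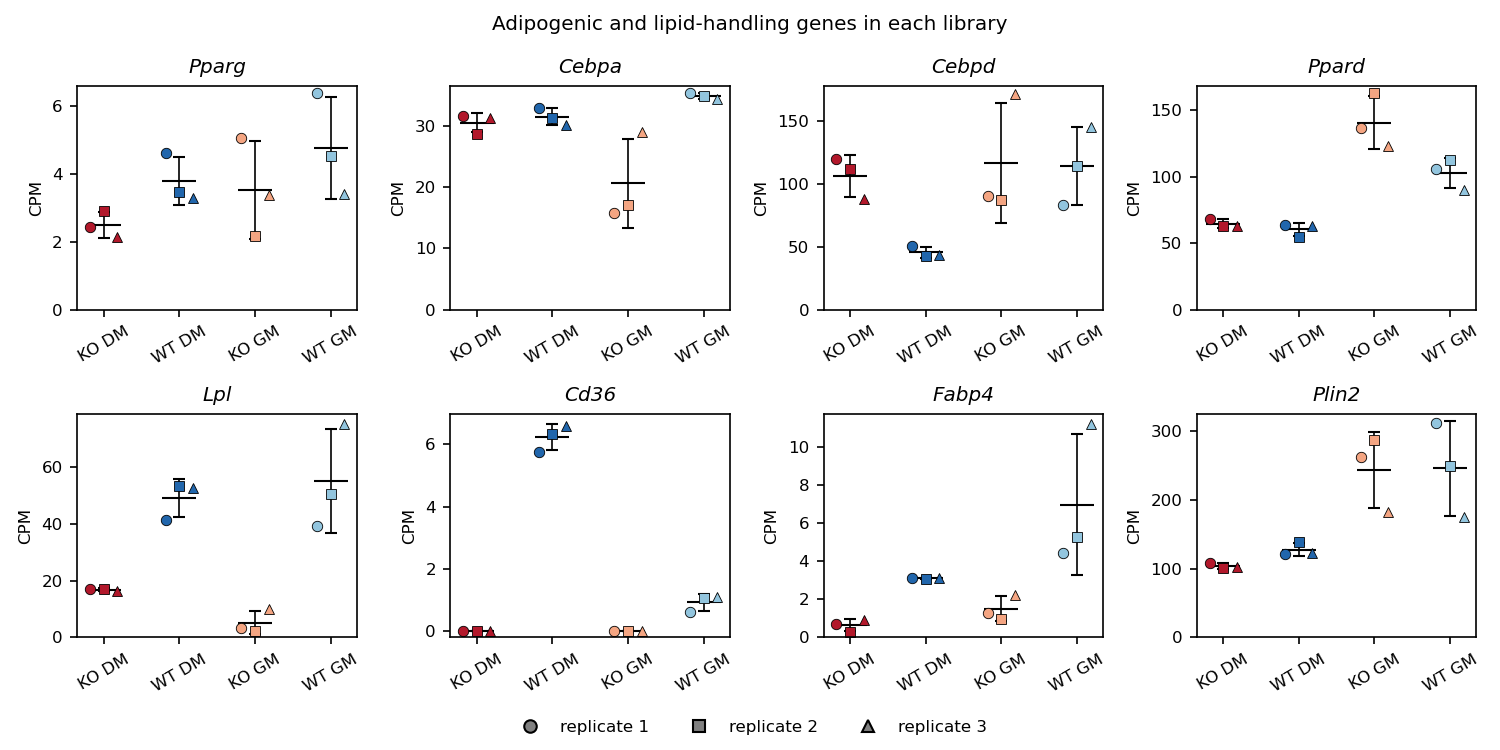
CPM of each gene in each of the 12 libraries, with marker shape for the replicate number, a bar for the group mean and whiskers for ± SD (n = 3). Cd36 lies at 0 in all 6 KO-labelled libraries, Lpl and Fabp4 lie lower in KO-labelled than in WT libraries of the same medium, and Ppard and Plin2 lie lower in DM than in GM.

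Among the regulators, Pparg had the lowest level per kilobase in every group. It was at 2.14 to 2.89 CPM in KO DM, 3.29 to 4.61 in WT DM, 2.17 to 5.05 in KO GM and 3.39 to 6.38 in WT GM. The order of the means was WT GM, WT DM, KO GM and KO DM, and each neighbour in it overlapped the next. No comparison was called by edgeR's quasi-likelihood test. The largest difference was KO DM against WT DM, at -0.60 ± 0.32 on the log2 scale (± SE, 95% interval -1.26 to 0.06, adjusted p = 0.167), and these 2 groups did not overlap. KO GM against WT GM was at -0.45 ± 0.30 (interval -1.07 to 0.17). The medium gave -0.48 ± 0.32 in KO-labelled cells (interval -1.14 to 0.18) and -0.33 ± 0.30 in WT cells (interval -0.95 to 0.29), and at these counts the intervals span both no change and a fall of about 1 log2 unit. In bulk RNA a lower level can come from fewer cells that express a gene or from less RNA per cell, which cannot be told apart here.

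Cebpa, the partner of Pparg in the late cascade, was lower in KO GM than in WT GM and KO DM. It was at 31.6, 28.8 and 31.3 CPM in KO DM (replicates 1 to 3), 33.1, 31.4 and 30.2 in WT DM, 15.8, 17.2 and 29.1 in KO GM, and 35.5, 34.9 and 34.4 in WT GM. KO GM replicate 3 thus lay within the range of KO DM but below every WT DM library, while the other KO GM libraries stayed well under every library of the other groups. Cebpa fell by 0.75 ± 0.16 in KO GM against WT GM (1.68-fold, adjusted p = 0.00228), without overlap, and by 1.10 without both GM replicate 3 libraries. Without KO GM replicate 1 this change was -0.60. In KO-labelled cells it rose by 0.56 ± 0.16 in DM (adjusted p = 0.00974, overlapping groups). That rise was 0.89 without KO GM replicate 3 and 0.91 without both GM replicate 3 libraries, but was no longer called without KO GM replicate 2 (0.44, adjusted p = 0.0526) or with only the 6 libraries compared (adjusted p = 0.0683; range over alternatives 3.6e-08 to 0.0683). In WT cells the medium left Cebpa at -0.15 ± 0.16 (interval -0.48 to 0.18, adjusted p = 0.505), and KO DM against WT DM was at -0.05 ± 0.16 (interval -0.37 to 0.28, adjusted p = 0.856). In the annotation, 51 bases of Cebpa exons lie opposite the antisense gene Gm45091, which had at most 2 counts in any library.

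Cebpd, the early factor, separated WT DM from everything else. It was at 119, 111 and 87.4 CPM in KO DM, 50.3, 42.7 and 43.5 in WT DM, 90.5, 86.7 and 171 in KO GM, and 83.1, 114 and 145 in WT GM. All 9 libraries outside WT DM were above all 3 WT DM libraries, and the other groups overlapped. Cebpd fell by 1.33 ± 0.32 in WT DM against WT GM (2.51-fold, adjusted p = 0.012), whereas KO DM against KO GM was at -0.13 ± 0.30 (interval -0.82 to 0.55, adjusted p = 0.766) and at 0.26 without KO GM replicate 3. The WT change was between -1.52 and -1.12 with 1 library left out, with an adjusted p of at most 0.0456 over all alternatives. In DM, Cebpd was higher under the KO label by 1.22 ± 0.32 (2.33-fold, adjusted p = 0.0191). This call ended without WT DM replicate 2 (adjusted p = 0.0639), WT DM replicate 3 (0.0591), KO DM replicate 1 (0.0556) or KO DM replicate 2 (0.0513), with the change between 1.15 and 1.21 in these fits and a range over alternatives from 1.36e-09 to 0.0639. In GM the labels were at 0.03 ± 0.30 (interval -0.66 to 0.71, adjusted p = 0.965), and at -0.37 without KO GM replicate 3. Exons of Cebpd and of Spidr, on the opposite strand, share 562 bases, and the strand setting of the counts is not given in the sources used here. Spidr was at 34.1 ± 1.64 CPM in KO DM, 26.7 ± 2.06 in WT DM, 42.4 ± 2.28 in KO GM and 31.3 ± 4.8 in WT GM.

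Ppard, the receptor most tied to muscle, fell in DM under both labels. It was at 68.5, 62.8 and 63.1 CPM in KO DM, 63.6, 54.9 and 62.9 in WT DM, 136, 163 and 123 in KO GM, and 106, 112 and 89.9 in WT GM. Every DM library was below every GM library, the DM groups overlapped, and KO GM lay above WT GM. The fall was 1.12 ± 0.10 in KO-labelled cells (2.18-fold, adjusted p = 1.27e-08) and 0.77 ± 0.10 in WT cells (1.70-fold, adjusted p = 4.25e-06). In GM, Ppard was higher under the KO label by 0.45 ± 0.10 (1.37-fold, adjusted p = 0.00178), and in DM the difference was 0.10 ± 0.10 (interval -0.11 to 0.31, adjusted p = 0.507). These 3 calls held in each of the 23 alternative fits. The GM difference was 0.36 without WT GM replicate 3, 0.54 without KO GM replicate 3 and 0.45 without both.

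Lpl, which starts fatty acid uptake at the cell surface, was lower under the KO label in both media. It was at 17.0, 17.0 and 16.2 CPM in KO DM, 41.5, 53.4 and 52.6 in WT DM, 3.33, 2.34 and 9.93 in KO GM, and 39.2, 50.7 and 75.2 in WT GM. Every KO-labelled library was below every WT library, KO DM lay above KO GM, and the WT groups overlapped. In GM, Lpl fell by 3.38 ± 0.44 under the KO label (10.4-fold, adjusted p = 7.26e-04). The change was -4.302 without KO GM replicate 3, -4.01 without both GM replicate 3 libraries and -3.10 without WT GM replicate 3. It was smallest, at -3.01, without KO GM replicate 2. In DM it fell by 1.56 ± 0.38 (2.94-fold, adjusted p = 0.0142). The DM call ended narrowly without KO DM replicate 2 or without KO DM replicate 3 (adjusted p = 0.0505 in each; range over alternatives 1.53e-13 to 0.0505), while the change stayed between -1.65 and -1.48.

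With the medium, Lpl in KO-labelled cells rose by 1.67 ± 0.47 in DM (3.17-fold, adjusted p = 0.0223). KO GM replicate 3 held 3.5 times the mean of the other KO GM libraries, and the rise was 2.58 without it (adjusted p = 2.36e-04). The call ended without any of KO DM replicates 1, 2 and 3 (adjusted p = 0.0511, 0.0522 and 0.0507), without KO GM replicate 1 (0.0736) or without KO GM replicate 2 (0.0633), with the change between 1.29 and 1.69 in these fits. It also ended with only the 6 libraries compared (0.0618), and the range over alternatives was 1.5e-13 to 0.0736. In WT cells the medium gave -0.16 ± 0.35 (interval -0.96 to 0.63, adjusted p = 0.767), and 0.13 without WT GM replicate 3.

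Among the partners of the lipase, neither Angptl4 nor Lmf1 was called between labels in either medium (adjusted p between 0.307 and 0.789). Angptl4, an inhibitor of the lipase and a target of PPARs, was at 92.4 ± 2.96 CPM in KO DM, 74.3 ± 3.52 in WT DM, 221 ± 40.8 in KO GM and 188 ± 51.6 in WT GM. It fell in DM by 1.26 ± 0.21 in KO-labelled cells and by 1.34 ± 0.21 in WT cells (adjusted p = 9.78e-04 and 9.3e-04). Lmf1, needed to fold the lipase, was at 33.5 ± 2.26, 30.6 ± 5.81, 33.5 ± 3.65 and 32.2 ± 3.92 CPM in KO DM, WT DM, KO GM and WT GM. Gpihbp1, which anchors the lipase on endothelium, was at 0 counts in all 12 libraries.

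Cd36 had 0 counts in every KO-labelled library. In WT DM it was at 5.76, 6.33 and 6.59 CPM (50, 62 and 66 counts), and in WT GM at 0.617, 1.07 and 1.10 CPM (6, 10 and 11 counts). With 3 counts over the group as the floor, Cd36 was at least 65.3-fold lower in KO DM than in WT DM (adjusted p = 2.34e-08) and at least 9.95-fold lower in KO GM than in WT GM (adjusted p = 2.01e-04). In WT cells it rose by 2.73 ± 0.36 in DM (6.63-fold, adjusted p = 8.12e-06). Since Cd36 entered the tests through its WT DM libraries, these calls are not independent of the filter. A change of Cd36 with the medium in KO-labelled cells could not be measured, since both groups were at 0.

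The neighbours of Cd36 on chromosome 5 were looked up after its counts had been seen. Of the 3 nearest protein-coding genes on each side in the RefSeq order, Speer4f2 and Gnat3 had no counts and Speer4f1 had 1. Gnai1, a G protein subunit gene, had 3 counts in KO DM, 24 in WT DM, 0 in KO GM and 17 in WT GM, and was too low for the test. Sema3c, a semaphorin gene, was at 37.6 ± 2.52 CPM in KO DM, 43.1 ± 3.62 in WT DM, 51.0 ± 7.19 in KO GM and 60.2 ± 6.4 in WT GM, and neither genotype comparison was called (adjusted p = 0.186 in DM and 0.117 in GM). Magi2 was at 2.65 ± 0.147, 1.65 ± 0.653, 1.61 ± 0.143 and 1.90 ± 0.384 CPM in the same order of groups.

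Fabp4, the cytosolic carrier of fat cells, was low throughout and lower still under the KO label. It was at 0.709, 0.280 and 0.929 CPM in KO DM (7, 3 and 10 counts), 3.11, 3.06 and 3.09 in WT DM, 1.29, 0.953 and 2.22 in KO GM (12, 11 and 25 counts), and 4.42, 5.27 and 11.2 in WT GM. The 4 groups did not overlap, in the order WT GM, WT DM, KO GM and KO DM. Fabp4 fell by 2.25 ± 0.47 in KO DM against WT DM (4.77-fold, adjusted p = 8.04e-04) and by 2.22 ± 0.38 in KO GM against WT GM (4.65-fold, adjusted p = 1.58e-04). Both genotype calls held in each of the 23 alternative fits, although the GM change was between -2.65 and -1.70, the last without WT GM replicate 3. As Fabp4 passed the filter only through the WT groups, these calls are not independent of that filter.

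With the medium, Fabp4 fell by 1.17 ± 0.35 in WT DM (2.25-fold, adjusted p = 0.0118). WT GM replicate 3 held 2.31 times the mean of the other WT GM libraries, and without it the change was -0.65 and was not called (adjusted p = 0.145; range 4.1e-04 to 0.145). In KO-labelled cells DM against GM was at -1.21 ± 0.51 (interval -2.28 to -0.14, adjusted p = 0.0662). It was called without WT GM replicate 3 (0.0341), without KO GM replicate 2 (0.0422), with DESeq2 (0.0485), with no filter on low counts (0.0266) and with a replicate block (0.0317), and was at -0.78 without KO GM replicate 3 (range of adjusted p 0.0266 to 0.302). Of the related carriers, the heart and muscle form Fabp3 was at 3.64 ± 0.489 CPM in KO DM, 10.2 ± 1.67 in WT DM, 0.701 ± 0.262 in KO GM and 1.26 ± 0.684 in WT GM. Fabp3 rose in DM under both labels (2.38 ± 0.36 and 3.00 ± 0.31) and was lower in KO DM than in WT DM by -1.48 ± 0.26 (adjusted p = 1.31e-04). Fabp5 was at 10.5 ± 1.47 CPM in KO DM and 27.1 ± 1.99 in WT DM, a fall of 1.37 ± 0.18 (adjusted p = 5.27e-06), and at 18.6 ± 3.98 in KO GM and 19.9 ± 4.66 in WT GM. How the authors assigned reads shared within this family could not be checked from the counts.

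Plin2, the droplet coat, followed the medium. It was at 108, 100.4 and 103 CPM in KO DM, 122, 139 and 123 in WT DM, 263, 288 and 182 in KO GM, and 313, 250 and 175 in WT GM. All 6 DM libraries were below all 6 GM libraries, and replicate 3 was the lowest in each GM group. Plin2 fell in DM by 1.24 ± 0.22 in KO-labelled cells (2.35-fold, adjusted p = 0.00201) and by 0.94 ± 0.22 in WT cells (1.92-fold, adjusted p = 0.0104). In KO-labelled cells the change was -1.40 without KO GM replicate 3 and -1.39 without both GM replicate 3 libraries. In WT cells it was between -1.14 and -0.74 with 1 library left out. In GM the labels did not part it (-0.01 ± 0.22, interval -0.51 to 0.49, adjusted p = 0.984). In DM the groups did not overlap, at -0.30 ± 0.22 (interval -0.81 to 0.21, adjusted p = 0.364). This difference was called when only the DM libraries were fitted (-0.28, adjusted p = 0.00108) or both GM replicate 3 libraries were left out (-0.28, adjusted p = 0.00283; highest 0.601). The perilipins of mature fat cells were at or near 0, with 0 counts of Plin1 in KO DM and KO GM, and 1 and 3 counts in WT DM and WT GM.

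**Figure D2:**
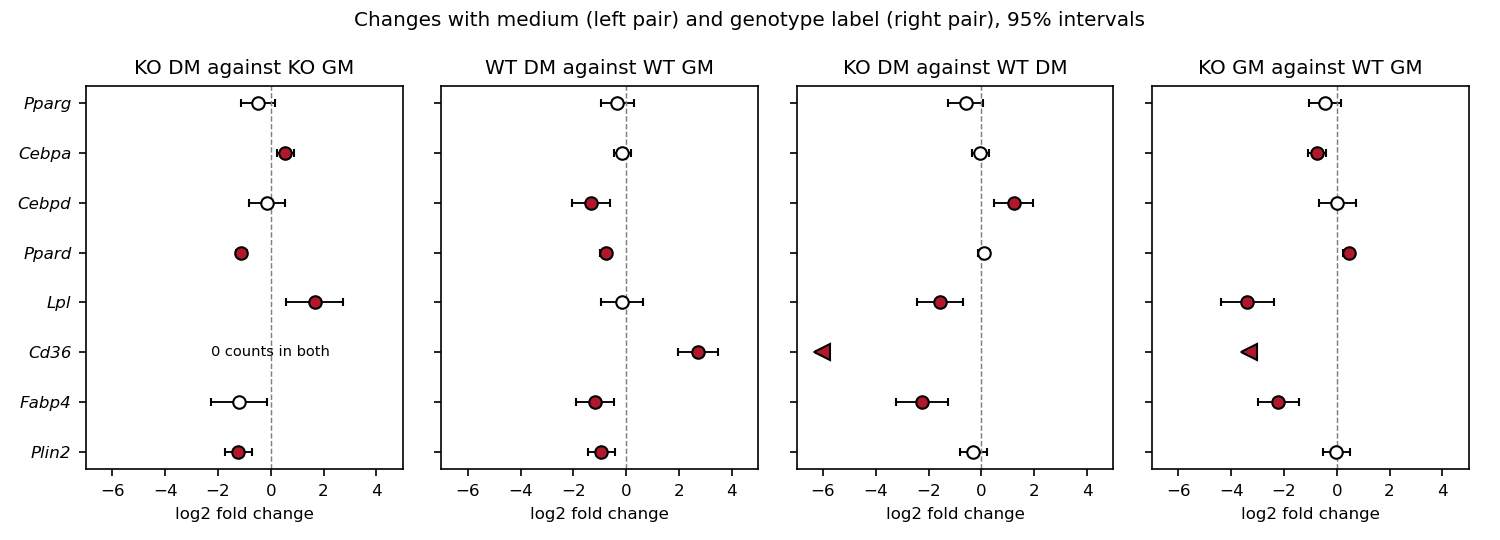
Log2 fold changes of the 8 genes with the medium (DM over GM, in KO-labelled and in WT cells) and with the genotype label (KO over WT, in DM and in GM), with 95% intervals from edgeR's quasi-likelihood fit and filled circles for adjusted p below 0.05. Triangles mark the least change of Cd36 against the floor (at least 65.3-fold lower in DM and 9.95-fold lower in GM), and Ppard and Plin2 lie left of 0 in both medium comparisons.

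Counted by comparison, the calls among the 8 genes stand beside a background in which many genes were called. In KO DM against KO GM, 2 of 7 measurable genes rose (Cebpa and Lpl) and 2 fell (Ppard and Plin2), where 40.6% of the 13250 tested genes were called (20.8% higher and 19.8% lower). The median log2 change was -0.48 over the 7 genes and -0.001 over all tested genes. In WT DM against WT GM, 1 of 8 rose (Cd36) and 4 fell (Cebpd, Ppard, Fabp4 and Plin2), against 33.2% of all genes (18.4% higher and 14.8% lower; medians -0.55 and -0.01). In KO DM against WT DM, 1 was higher (Cebpd) and 3 were lower (Lpl, Cd36 and Fabp4), against 31.0% of all genes (13.6% higher and 17.4% lower; medians -0.45 and -0.02). In KO GM against WT GM, 1 was higher (Ppard) and 4 were lower (Cebpa, Lpl, Cd36 and Fabp4), against 20.7% of all genes (10.0% higher and 10.6% lower; medians -0.60 and -0.005). The medians were the same with Cd36 placed at its bound. Cd36 and Fabp4 passed the filter only through WT libraries. Their calls as lower under the KO label, and the rise of Cd36 in WT DM, are therefore no separate support. These comparisons share their groups pairwise and are not independent of each other.

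Whether the response to DM differed between the labels was tested with the interaction, the DM response under the KO label with the WT response subtracted. By edgeR 0 of 7 measurable genes were called, where 8.86% of all tested genes were (3.61% higher and 5.25% lower), although 4 had an unadjusted p below 0.05. DESeq2 called 1 of the 7 (Cebpa) and limma-voom 3 (Cebpa, Cebpd and Lpl). The values were 0.70 ± 0.22 for Cebpa (adjusted p = 0.0577), 1.19 ± 0.43 for Cebpd (0.14), 1.83 ± 0.59 for Lpl (0.1) and -0.35 ± 0.14 for Ppard (0.128). Plin2 was at -0.29 ± 0.31 (interval -1.005 to 0.42), Pparg at -0.15 ± 0.44 (interval -1.05 to 0.76) and Fabp4 at -0.04. No interval is given for Fabp4, since its SE, derived from F, was unstable at a change so near 0. It was 0.48 in this fit, 0.236 with upper-quartile factors and 1.29 with total counts alone, for changes of -0.04, -0.007 and 0.02.

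The GM replicate 3 libraries bear on this result. Without KO GM replicate 3, the interaction of Cebpa was 1.05 (adjusted p = 3.9e-05), of Cebpd 1.60 (0.00998), of Lpl 2.76 (0.00215) and of Ppard -0.43 (0.0375). Without both GM replicate 3 libraries these were 1.07, 1.399, 2.47 and -0.33, with adjusted p of 4.62e-06, 0.00199, 8.63e-10 and 0.0441. So 4 of 7 genes were called in either case and 0 of 7 with all libraries. Over all tested genes, 1920 and 2709 were called in these fits and 1174 of 13250 (8.86%) with all libraries. The fits with libraries left out were filtered anew, so their number of tested genes can differ. Without WT GM replicate 3 alone, 0 of the 7 were called, and 1656 of all genes. There Cebpa was at 0.74 (adjusted p = 0.0668), Cebpd at 1.005 (0.204), Lpl at 1.56 (0.123) and Ppard at -0.24 (0.256). Over all alternatives the adjusted p ran from 4.62e-06 to 0.126 for Cebpa, 0.00199 to 0.26 for Cebpd, 8.63e-10 to 0.218 for Lpl and 0.0375 to 0.394 for Ppard.

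**Figure D3:**
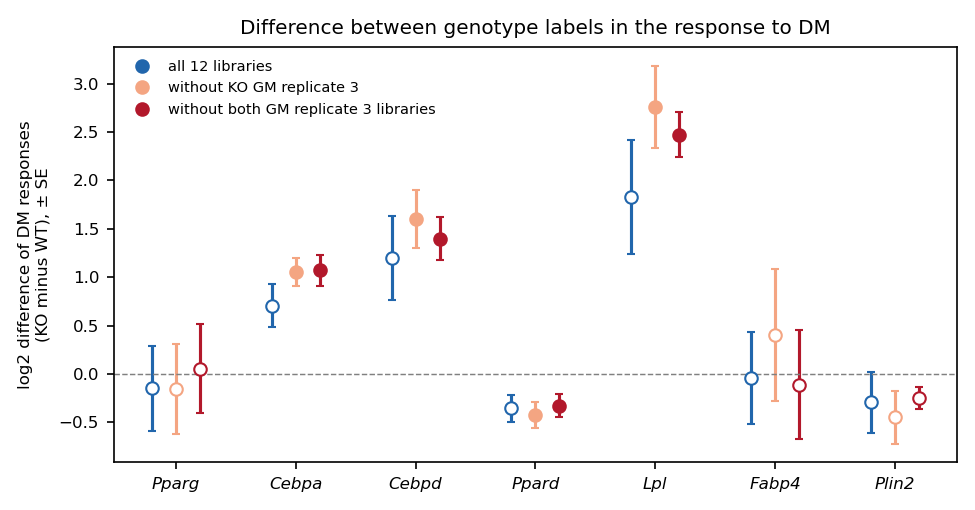
Difference of the DM response between KO-labelled and WT cells (log2, ± SE) for 7 genes, with all 12 libraries, without KO GM replicate 3 and without both GM replicate 3 libraries, filled where adjusted p was below 0.05. Cebpa, Cebpd, Lpl and Ppard are filled only where the replicate 3 libraries were left out. Cd36 is not drawn because KO-labelled cells had 0 counts. The whisker of Fabp4 with all 12 libraries is not reliable, since its change is near 0.

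Genes of the wider adipogenic and lipid pathways, none of them among the 8, were called in both directions. Changes with DM are given for KO-labelled cells first and for WT cells second. Of 16 tested adipogenic transcription factors, 5 rose and 2 fell in KO DM against KO GM, and 4 rose and 2 fell in WT DM against WT GM (list medians 0.13 and 0.004). Over all tested genes 20.8% rose and 19.8% fell in KO DM, and 18.4% rose and 14.8% fell in WT DM, and the counts of this and the following lists are to be read beside these shares. Srebf1, a regulator of lipid synthesis, rose by 0.72 ± 0.09 and 0.78 ± 0.09, and the coactivator gene Ppargc1b by 0.94 ± 0.27 and 1.31 ± 0.27. Between labels, 6 were higher and 3 lower in KO DM against WT DM, and 4 higher and 1 lower in KO GM against WT GM. Over all tested genes 31.0% were called in DM (13.6% higher and 17.4% lower) and 20.7% in GM (10.0% higher and 10.6% lower). The label counts of this and the following lists are to be read beside these shares. Cebpb, the early partner of Cebpd, was at 121 ± 17.4 CPM in KO DM and 81.7 ± 3.07 in WT DM (0.56 ± 0.17, adjusted p = 0.0259), and at 115 ± 25.8 in KO GM and 128 ± 18.5 in WT GM. Like Cebpd, it was thus higher under the KO label in DM, and it fell in WT DM by 0.64 ± 0.17 (adjusted p = 0.0122). Klf5, a Krüppel-like factor, was lower in KO DM than in WT DM (-0.46 ± 0.09) but higher in KO GM than in WT GM (0.49 ± 0.09), an interaction of -0.96 ± 0.13 (adjusted p = 9.22e-05).

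Inhibitors of fat cell formation had 4 risers and 5 fallers of 16 in KO DM against KO GM and 2 risers and 4 fallers in WT DM against WT GM. The pseudokinase gene Trib2 fell by 1.06 ± 0.14 and 1.24 ± 0.14. In KO GM against WT GM 2 were higher and 6 lower, beside 10.0% and 10.6% of all genes. In KO DM against WT DM 1 was higher and 2 lower, beside 13.6% and 17.4%. Klf2, which in mouse preadipocytes is known to hold back Pparg, was at 3.85 CPM in KO DM and 21.1 in WT DM, a fall of 2.46 ± 0.19 (adjusted p = 1.57e-09), and fell by 0.79 ± 0.17 in KO GM. The zinc finger gene Zfp521 had 0 counts in KO DM and KO GM, and 49 and 21 counts in WT DM and WT GM. Its mean was above the filter's cutoff of 0.999 CPM only in WT DM (1.75 CPM, with 0.733 in WT GM). Its calls as lower under the KO label, counted above in both media, are therefore no separate support. The list medians between labels were -0.05 in DM and -0.02 in GM.

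Fatty acid uptake and activation genes had 4 risers and 3 fallers of 15 in each medium comparison. Acsl3, an acyl-CoA synthetase gene, rose by 1.63 ± 0.20 in KO DM and 1.42 ± 0.20 in WT DM, and Acsl6 by 2.98 ± 0.33 and 2.90 ± 0.23. Acsl6 was lower under the KO label, at 4.75 CPM in KO DM and 19.0 in WT DM, and at 0.598 in KO GM and 2.54 in WT GM (-2.08 ± 0.36). Between labels, 5 of the 15 were higher and 4 lower in DM, and 4 were higher and 3 lower in GM. Acsl1 was higher in KO DM than in WT DM (0.72 ± 0.16, adjusted p = 0.00167).

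Among 10 tested lipase partners and lipoprotein receptors, 4 rose and 2 fell in KO DM and 3 rose and 2 fell in WT DM. The apolipoprotein gene Apoe was at 9.92 ± 1.59 CPM in KO DM, 37.8 ± 4.54 in WT DM, 2.47 ± 0.624 in KO GM and 22.7 ± 2.92 in WT GM. It fell by 1.93 ± 0.15 under the KO label in DM and by 3.19 ± 0.19 in GM (adjusted p = 1.58e-09 and 3.61e-11). In all, 2 genes of the list were higher and 2 lower in KO DM against WT DM, and 1 was higher and 1 lower in KO GM against WT GM.

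Storage genes were mixed as well. Triglyceride synthesis had 4 risers and 5 fallers of 14 in KO DM and 2 of each in WT DM, with Gpam, which starts glycerolipid synthesis, rising by 0.80 ± 0.09 and 0.52 ± 0.09, and the acyltransferase gene Dgat2 falling by 1.52 ± 0.24 and 1.28 ± 0.22. Between labels, 1 was higher and 4 lower in DM, and 2 higher and 3 lower in GM. Of 10 tested lipid droplet and lipolysis genes, 2 rose and 1 fell in KO DM, and 3 rose and 2 fell in WT DM. Hilpda, a hypoxia-induced droplet protein gene that blocks lipolysis, fell by 1.60 ± 0.10 and 1.19 ± 0.10, while G0s2, another such inhibitor gene, rose by 1.05 ± 0.16 and 1.02 ± 0.16. The monoglyceride lipase gene Mgll was at 2.10 CPM in KO DM and 12.7 in WT DM (-2.59 ± 0.25, adjusted p = 3.77e-08), and at 1.38 in KO GM and 3.56 in WT GM (-1.36 ± 0.30). It was the only called gene of the list in KO DM against WT DM, and Plin3 fell with it in KO GM (-0.23 ± 0.08).

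Fatty acid oxidation genes and PPAR targets rose in 10 of 18 cases in KO DM (1 fell), beside 20.8% of all genes, and in 5 in WT DM (1 fell), beside 18.4%. The list medians were 0.24 and 0.10, against -0.001 and -0.01 over all genes. Pdk4, a PPAR target that restrains glucose oxidation, was at 26.9 CPM in KO DM, 13.5 in WT DM, 8.74 in KO GM and 8.17 in WT GM, rising by 1.62 ± 0.15 and 0.72 ± 0.16 with DM (interaction 0.90 ± 0.22, adjusted p = 0.0139). Fgf21, a hormone gene, rose by 3.08 ± 0.38 and 2.49 ± 0.32. Between labels, 5 were higher and 4 lower in DM, and 2 were higher and 2 lower in GM. Of 15 hormone and mature fat cell genes only 3 were abundant enough to test. Dio2, a deiodinase gene, rose with DM by 1.70 ± 0.11 and 0.78 ± 0.11, and Nrip1, a corepressor gene, rose in KO DM (0.32 ± 0.10) and was at 0.06 ± 0.11 in WT cells. Cox8b, a cytochrome oxidase subunit gene, rose by 2.15 ± 0.46 in WT DM and was near the floor in KO GM (2 counts in 3 libraries). Its mean was above the filter's cutoff of 0.999 CPM only in WT DM, at 2.62 CPM, with 0.581 in WT GM and 0.550 in KO DM. The rise of Cox8b is therefore not independent of the filter.

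**Figure D4:**
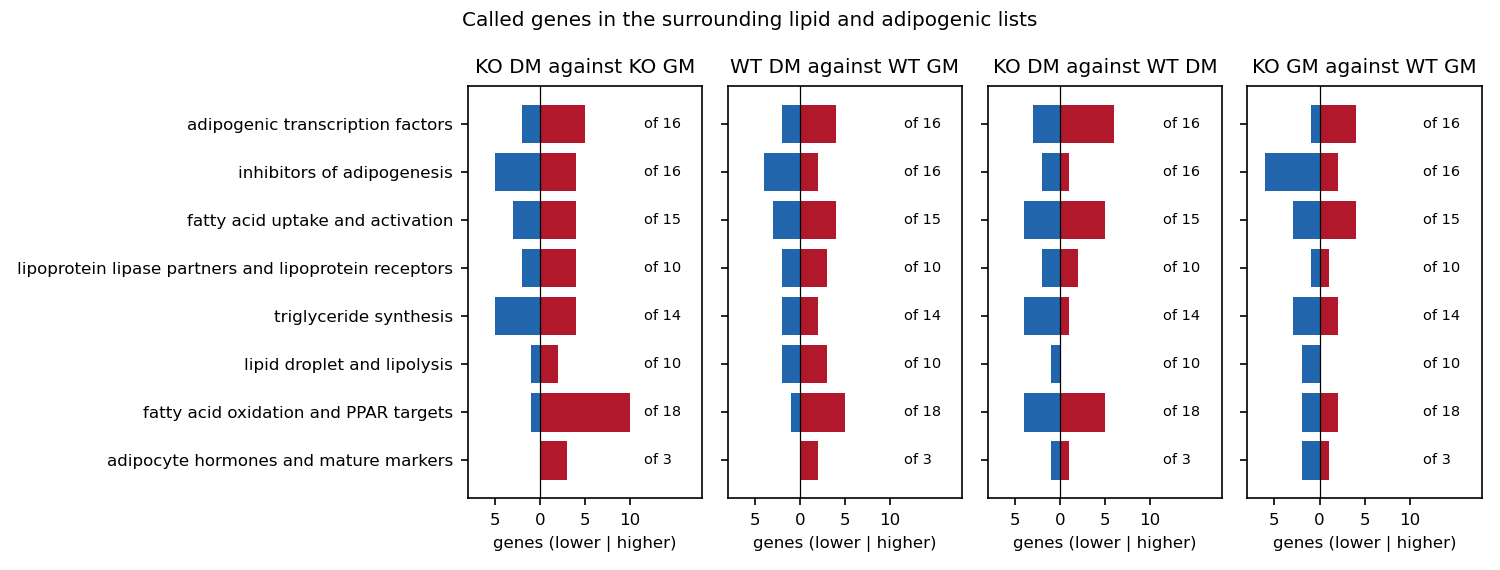
Number of genes of each surrounding list called higher (right, red) and lower (left, blue) at adjusted p below 0.05 with the medium (KO-labelled cells, WT cells) and with the genotype label (DM, GM), with the number tested at the right. Calls lie on both sides of 0 in most lists, and fatty acid oxidation and PPAR targets hold 10 risers of 18 in KO DM.

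The genes whose pattern over the 12 libraries was nearest to each of the 8 were found by the root-mean-square difference of centred log2 CPM. For Ppard this was Abcc1, a drug transporter gene, at 0.09 log2 units, with 194 ± 10.8 CPM in KO DM, 173 ± 3.96 in WT DM, 376 ± 34.4 in KO GM and 299 ± 29.1 in WT GM. For Cebpa it was the matrix gene Fbln1 (0.15), for Cebpd the sphingosine kinase gene Sphk1 (0.16), and for Plin2 Gsto1, a glutathione transferase gene (0.16). Sphk1 was at 76.6 ± 3.94 CPM in KO DM, 32.5 ± 7.48 in WT DM, 74.2 ± 24.5 in KO GM and 80.5 ± 10.9 in WT GM, so that WT DM was its lowest group too. The nearest genes to Lpl were Igfbp4 (0.43), Svep1 (0.46) and Apoe (0.49), and Igfbp4 was at 19.0 ± 3.06 CPM in KO DM, 79.9 ± 19.1 in WT DM, 7.08 ± 1.48 in KO GM and 70.3 ± 15.5 in WT GM. Those of Cd36 were Map2 (0.45), Peg10 (0.50) and Pmaip1 (0.60), and those of Fabp4 were Ccn2 (0.53), Acvrl1 (0.56) and Galnt18 (0.58). For Pparg the nearest was Ttc12 (0.25), on the background of its own spread of 0.47 (SD of log2 CPM over the libraries). The spread was 1.59 for Lpl, 2.18 for Cd36 and 1.28 for Fabp4, so their nearest genes are less close in absolute terms. In the KO-labelled libraries, with 0 counts, the log2 level of Cd36 was set by the small count (2) added before taking logs. Its nearest genes and its spread depend on that setting.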

How the data were processed

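RNA of 12 C2C12 libraries was sequenced as paired-end reads of 150 bp, per the labels. The authors deposited whole-number counts per Ensembl gene for each library, with no normalization. The submitters' processing notes name the build GRCm39 with RSEM 1.3.3, STAR 2.7.1a, DESeq2 1.40.2 and R 4.3.1, without saying which made the counts. The table has 4 unnamed, empty columns, which were not used. Columns were matched to samples by the library names in the labels, and symbols were taken from GENCODE vM21, which gave 52083 of 55416 genes a name.

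The analysis used edgeR 4.0.16 in R 4.3.3. The filter filterByExpr left 13250 genes with 99.9% of counts. After TMM scaling they were fitted with 1 quasi-likelihood model of 4 group means with robust dispersion. The 5 contrasts were tested 2-sided, with Benjamini-Hochberg adjustment over all tested genes and a call below 0.05. SE is the log2 change divided by the square root of F, which was unstable for the interaction of Fabp4, a change near 0. Only called genes are said to rise or fall. The fit was also run on simulated counts, drawn with 1 dispersion for all genes and without outlying libraries. In these data the GM replicate 3 libraries stood apart, so that run does not test the calls that depend on them. A floor of 3 counts, which covers counting error only, was 0.26 to 0.346 CPM in single libraries. Replicates are biological per the labels, and whether they came from separate cultures is not stated beyond that, so p-values measure only the spread between these samples.

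The 8 genes, the gene lists and the tests were chosen with earlier results of these data known. Named genes of the lists are those called with the largest change (up to 4 in a comparison, at least 1 CPM in the higher group). Some partner and marker genes were named by their role. The nearest genes needed a mean of 5 CPM, and predicted genes were left out. Transcript lengths come from GENCODE vM21 (GRCm38) and no coordinates were converted. Same-numbered libraries deviated together in WT DM and WT GM (correlation of deviations 0.105 to 0.113 over 3 pairs), which meets the criterion for pairing there, although the labels do not say what a number marks. Alternatives were 3 other scalings, DESeq2 1.42.0, limma-voom (limma 3.58.1), other filters and fits, a replicate block, and leaving out libraries.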

Additional observations from a re-analysis of the deposited data

How the results depend on the processing

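Of 38 changes (7 or 8 genes in 5 comparisons), 27 kept their direction where called and their side of the threshold in all alternative fits that gave a value, 11 did not, and 0 called changes reversed. There were 23 such fits, or 22 for the interaction and for Cd36 in KO GM against WT GM, which the fit to only the 6 libraries compared did not give. The 11 are given with their values in the report. With only the 6 libraries compared, 2 of the genes were called in KO DM against KO GM instead of 4, and 5271 of all genes instead of 5381. Leaving out 1 library at a time gave 4 to 5 called genes in WT DM against WT GM, 3 to 5 in KO DM against KO GM, 5 in KO GM against WT GM, 2 to 4 in KO DM against WT DM (2 without KO DM replicate 2) and 0 to 4 for the interaction (4 without KO GM replicate 3). Over all genes, in the same order without the interaction, these refits called 3451 to 4934, 4295 to 5722, 2105 to 3036 and 3177 to 4583. With all libraries the numbers were 4405, 5381, 2740 and 4114 of 13250. Each refit was filtered anew, so its number of tested genes can differ from 13250. The interaction had 1 called gene with upper-quartile factors, total counts alone, DESeq2 or no filter on low counts, 2 with no robust estimation, 3 with limma-voom and 4 without both GM replicate 3 libraries. Over all genes the interaction calls were 1174 of 13250 (8.86%), with 693 to 1920 when 1 library was left out and 2709 without both GM replicate 3 libraries. The cause of these differences was not tested. Of called interactions 40.7% were higher, and 57.8% with total counts alone.

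With a replicate block the interaction had 1 called gene among the 8 (Cebpa, 0.72, adjusted p = 0.0429), and Fabp4 in KO DM against KO GM was called (adjusted p = 0.0317). The block changed no other call of the 8 genes. In WT DM against WT GM, where the numbers met the criterion for pairing, it gave 4786 called genes and 4405 without it. In the other comparisons same-numbered libraries correlated at -0.169 to 0.0227 (KO DM and KO GM), -0.094 to 0.275 (KO GM and WT GM) and 0.0176 to 0.104 (KO DM and WT DM), so the numbers were not taken as pairs. Between groups not compared directly, same-numbered libraries correlated at 0.17 to 0.252 (WT DM and KO GM) and 0.122 to 0.25 (WT GM and KO DM). Libraries of different numbers, over all groups, ran from -0.379 to 0.36. What the replicate number stands for was not tested. Depth limits Pparg, Fabp4 in KO DM and Cd36 in WT GM and in KO-labelled cells, whose counts are given in the report.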
